A study of Rattus norvegicus with 12 samples.

Results

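The genes described here are the enzymes and small proteins with which cells remove superoxide and peroxides, together with the glutathione and thioredoxin systems that keep them reduced, 2 metallothioneins and the regulators of this defence. They were chosen by name from a list of 37 genes. Of these, 36 had a probe set on the array that carries their gene symbol and no other, out of 10410 such genes; Prdx1 lay only on a probe set that lists several symbols and is not reported. The probe set with the highest mean signal stood for each gene. Signals of 32 of the 36 genes were high enough to be tested, and Gsr, Gss, Gstt1 and Mt1 were too dim. No measured value entered the choice of the genes, but the choice was made with earlier results of these data known.

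The study measured RNA in the hearts of 12 rats, 1 array per rat. In the IR groups (ischaemia, then reperfusion) a coronary artery, the left anterior descending (LAD), was occluded or ligated for 30 min and then reopened, and tissue was collected after 2 or 7 days of reperfusion; the sham groups had sham surgery without the occlusion and were sampled on the same days. There were 3 rats each in the groups 2 d sham (replicates 71, 72 and 74), 2 d IR (69, 73 and 76), 7 d sham (80, 81 and 82) and 7 d IR (44, 47 and 48), and values below are given in this order of replicates. The labels give no strain, sex or age. They name the tissue as heart, name the ventricle for 1 sample only (7 d IR replicate 44), and do not say whether the injured wall was sampled.

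Superoxide dismutases turn superoxide into hydrogen peroxide, which catalase, the glutathione peroxidases and the peroxiredoxins then remove. The glutathione peroxidases and peroxiredoxins draw their electrons from glutathione or thioredoxin, which are kept reduced at the expense of NADPH. The transcription factor NRF2, held back by KEAP1, drives many of these genes. Reopening a coronary artery is known for a burst of oxidants, many of them from mitochondria, and the enzymes are divided among mitochondria, cytosol and the secretory pathway, so that each compartment has a set of its own.

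Signals are MAS5 intensities on a linear scale, and changes are differences of log2(signal + 195.4), a scale that understates the change of dim genes. A gene is called higher or lower where limma's moderated test gave an adjusted p under 0.05 (Benjamini-Hochberg over all 10527 probe sets tested), and SE is the standard error of that fit. The p-values set each change against the spread between rats within the groups, pooled over all groups and moderated over all probe sets tested. In heart tissue, which holds several cell types, fewer cells of a type and less RNA per cell cannot be told apart.

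Arrays 69 (2 d IR) and 82 (7 d sham) differed from the rest of their groups. The first principal component of all probe sets tested placed array 69 at -18.3 and the other 2 d IR arrays at 4.11 and -0.18, and placed array 82 at 23.6 and the other 7 d sham arrays at 1.06 and 1.14. The 3′ to 5′ ratio of Actb, a sign of RNA integrity, was 0.58 ± 0.23 (log2, SD, n = 3) in 7 d sham and 0.18 ± 0.06 in 7 d IR without overlap, and 0.20 ± 0.10 and 0.24 ± 0.07 in 2 d sham and 2 d IR. The same ratio overlapped between the 7 d groups for Gapdh (0.31 to 0.44 in sham, 0.28 to 0.38 in IR). It overlapped for hexokinase as well (0.76 to 1.21 in sham, 0.71 to 1.0 in IR). All 13 cardiomyocyte markers on the array passed the filter on dim probe sets. Their summed signal was 678078 to 768669 in 2 d sham, 496820 to 665377 in 2 d IR, 630464 to 749130 in 7 d sham and 481410 to 535619 in 7 d IR, and 1 and 8 of the 13 were called lower after reperfusion at 2 d and 7 d. Macrophage markers ran from 48599 to 69622, 108688 to 167396, 47796 to 81553 and 118650 to 135216 in the same order of groups, with 10 and 12 of 15 called higher. Fibroblast markers ran from 78558 to 89844, 98961 to 119267, 97076 to 180025 and 220300 to 291375, with 1 and 6 of 11 called higher, and 8 higher in 7 d IR than in 2 d IR. The summed signal of 4 atrial markers was 20690 to 41563, 14182 to 20459, 41693 to 54884 and 24972 to 49277, and 0 of 4 were called at 2 d and 1 was called lower at 7 d. What these shifts contributed to the results below was not tested.

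Of the 32 tested genes, 5 passed the test after reperfusion, all at 7 d; other probe sets of Glrx and Gclc, described below, passed as well. Gpx7 and Prdx4, peroxidases of the endoplasmic reticulum, were higher in the 7 d IR hearts, and Sod1, Prdx3 and Gsto1 were lower. At 2 d, 0 of 32 genes were called, where 2.47% of all probe sets were (1.88% higher and 0.589% lower). At an unadjusted p under 0.05, 14 of the 32 genes passed at 2 d, against 21.5% of all probe sets. At 7 d, 2 genes (6.25%) were called higher and 3 (9.38%) lower, where 6.22% and 5.85% of all probe sets were, and 12 passed at an unadjusted p under 0.05 (28.0% of all probe sets). The median change of the 32 genes was -0.03 at 2 d and -0.12 at 7 d, beside 0.003 and 0.007 over all probe sets. A change above 0 was found in 15 and 13 of the 32 genes, beside 50.4% and 50.8% of all probe sets. The counts at 7 d rest on few arrays. The number called higher was 1 without 7 d IR array 47 or 7 d sham array 82. The number called lower was 1 without 7 d IR array 44 or 48 and 0 without array 82, and it was 8 with the 2 d sham rats as the control of the 7 d IR rats. A gene that was not called is not shown to be unchanged.

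**Figure D1:**
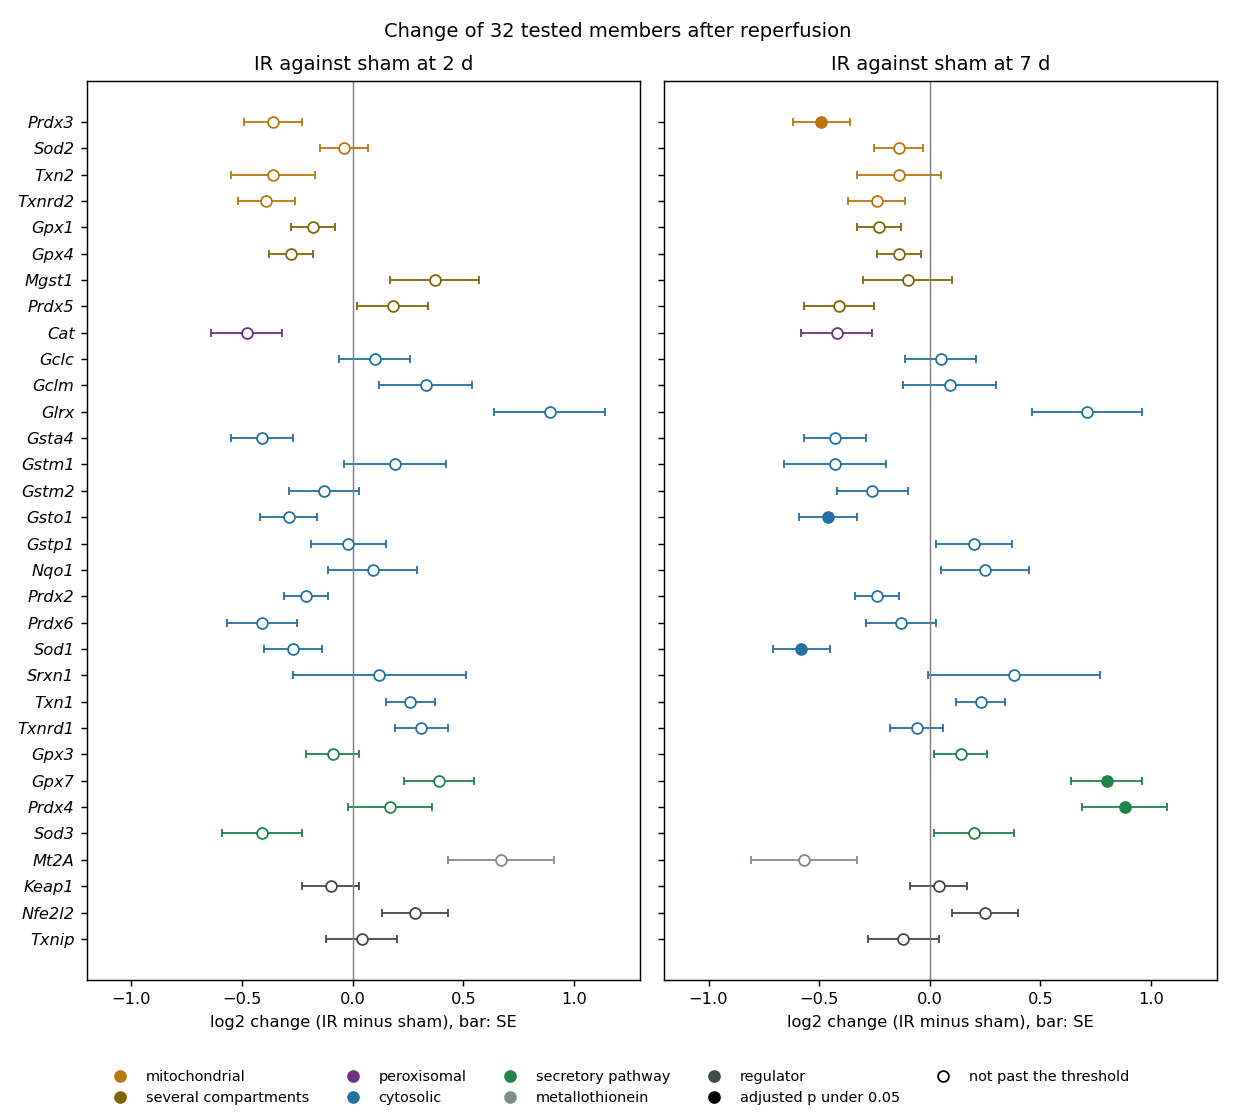
Log2 change after reperfusion (x axis, IR minus sham, bars: SE) of the 32 tested genes (y axis), coloured by compartment, at 2 d (left) and 7 d (right); filled points passed an adjusted p under 0.05. At 2 d no point is filled; at 7 d Gpx7 (0.80) and Prdx4 (0.88) lie right of 0 and Sod1 (-0.58), Prdx3 (-0.49) and Gsto1 (-0.46) left of it.

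The difference between the 7 d and the 2 d effect was called for 0 of the 32 genes (0.0095% of all probe sets), 13 differences were above 0 (48.2% of all probe sets), and 4 passed at an unadjusted p under 0.05 (7.14% of all probe sets), namely Sod3, Prdx4, Prdx5 and Mt2A. An effect called at 7 d and not at 2 d is therefore not shown to differ between the days. Between the sham groups, 0 of 32 genes were called (0.076% of all probe sets, 0.057% higher and 0.019% lower), and 4 passed at an unadjusted p under 0.05 (9.42% of all probe sets). The 7 d sham arrays lay wholly above the 2 d sham arrays for 0 genes and below for 2, Gpx4 and Nqo1, where 7.27% and 7.07% of all probe sets did, and 14 of 32 changes were above 0 (50.4% of all probe sets). Between the IR groups, Gpx7 and Prdx4 were higher at 7 d than at 2 d (2.45% of all probe sets were called higher) and Mt2A was lower (0.997%, or 3.45% either way). At an unadjusted p under 0.05, 9 genes passed (16.4% of all probe sets), the arrays lay wholly above for 2 genes and below for 5 (10.6% and 9.91% of all probe sets), and 9 changes were above 0 (48.7%). That comparison shares the 7 d IR arrays with the comparison against 7 d sham.

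The secretory pathway class held 4 tested enzymes, Gpx7 and Prdx4 of the endoplasmic reticulum, and Sod3 and Gpx3, which are secreted. GPX7 takes up peroxide made in the endoplasmic reticulum and passes the oxidation on to protein disulfide isomerase. The Gpx7 signal was 1475, 1591 and 1634 in 2 d sham, 2186, 2104 and 2027 in 2 d IR, 2403, 2641 and 1495 in 7 d sham, and 4057, 3859 and 3594 in 7 d IR. The IR arrays lay above the sham arrays of their day on both days, and the lowest 7 d IR array lay above the other 9 arrays. At 7 d Gpx7 rose by 0.80 on the log2 scale (SE 0.16, 1.74-fold, adjusted p 0.00998), and it was 0.81 higher in 7 d IR than in 2 d IR (SE 0.16, adjusted p 0.0113). Both calls held in every alternative, 22 for the former and 21 for the latter, with changes from 0.57 to 1.19 and from 0.74 to 0.85. The change at 2 d was 0.39 (SE 0.16, adjusted p 0.181). The 7 d sham arrays 80 and 81 were above the 2 d sham arrays while array 82 was among them: 7 d sham against 2 d sham gave 0.40 (adjusted p 0.462), and 0.62 (adjusted p 0.0344) without array 82.

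PRDX4 is the peroxiredoxin of the endoplasmic reticulum, which reduces peroxide and helps to form disulfide bonds in proteins on their way to secretion. The Prdx4 signal was 2497, 2754 and 2831 in 2 d sham, 3496, 2618 and 3091 in 2 d IR, 2786, 3553 and 2091 in 7 d sham, and 5759, 6323 and 3925 in 7 d IR. The 2 d groups overlapped, whereas every 7 d IR array lay above every other array. At 7 d Prdx4 rose by 0.88 (SE 0.19, 1.84-fold, adjusted p 0.0124), but missed the threshold without 7 d IR array 47 (0.75, adjusted p 0.0531) or without 7 d sham array 82 (0.70, adjusted p 0.0639). The change at 2 d was 0.17 (SE 0.19, adjusted p 0.666), and the difference of the 2 effects was 0.71 (SE 0.27, adjusted p 0.574). The rise from 2 d IR to 7 d IR was 0.74 (SE 0.19, 1.67-fold, adjusted p 0.046). That call held in 9 of 21 alternatives and in 4 of the 12 fits with 1 array left out, those without array 48, 69, 81 or 82, with changes of 0.61 to 0.94.

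The secreted enzymes of this class did not pass. Sod3, the extracellular superoxide dismutase, read 5143, 3439 and 4903 in 2 d sham, 2700.5, 4129 and 3179 in 2 d IR, 3673, 3273 and 4551 in 7 d sham, and 4561, 4627 and 4030 in 7 d IR, with overlap on both days. Its change was -0.41 at 2 d (SE 0.18, adjusted p 0.197) and 0.20 at 7 d (SE 0.18, adjusted p 0.496). Gpx3, the glutathione peroxidase of plasma, read 17158 to 23092 over all 12 arrays and changed by -0.09 and 0.14 (adjusted p 0.707 and 0.468). The calls in this class were thus both of enzymes of the endoplasmic reticulum. Fibroblast markers had a median change of 0.47 at 2 d and 1.01 at 7 d, and macrophage markers 1.01 and 0.88. The fibroblast median was 1.17 from 2 d IR to 7 d IR and 0.74 from 2 d sham to 7 d sham. What these markers contributed to the values of this class was not tested.

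**Figure D2:**
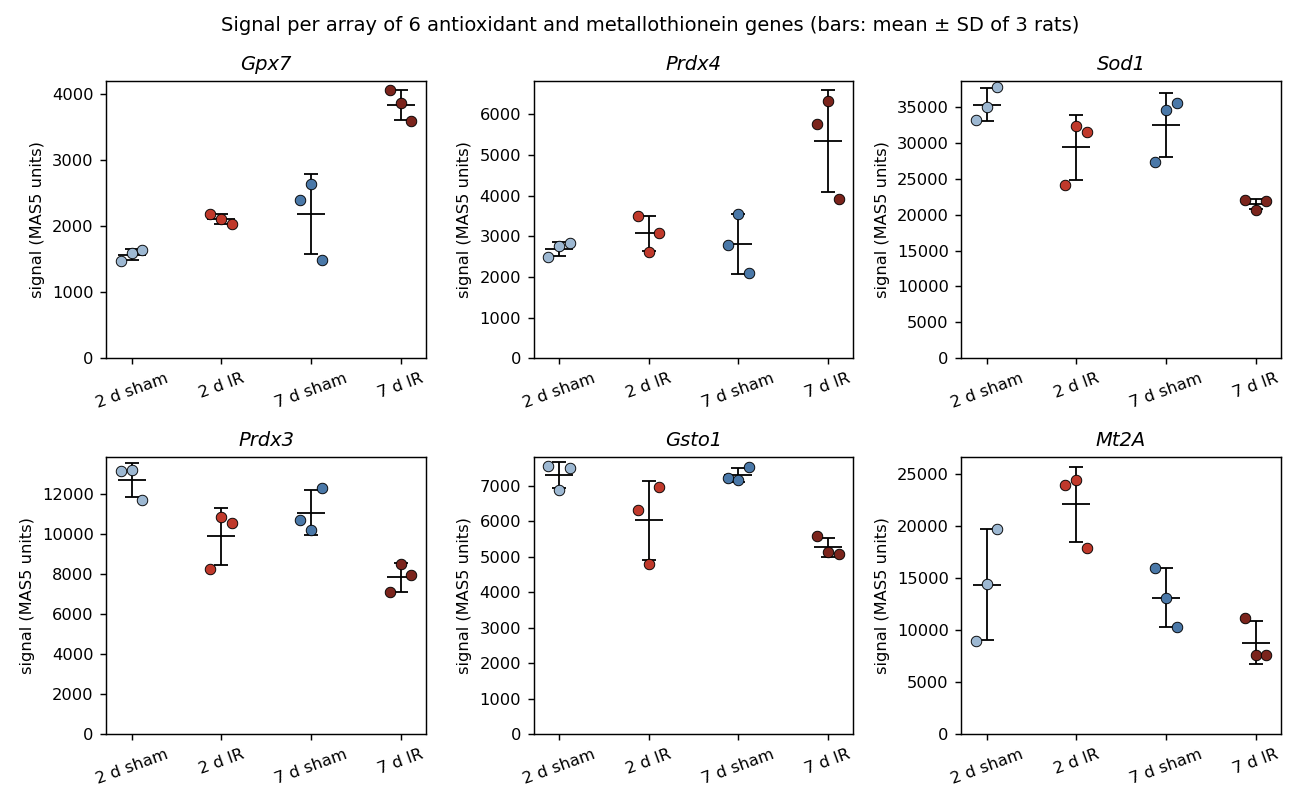
MAS5 signal (y axis, linear, from 0) of 6 genes in the 4 groups (x axis), 1 point per rat, with mean and SD of 3 rats. By group mean, Gpx7 and Prdx4 are highest in 7 d IR, and Sod1, Prdx3 and Gsto1 are lowest there. For Prdx3 and Gsto1, the arrays of 7 d IR and 2 d IR overlap. Mt2A falls from 17862 to 24354 in 2 d IR to 7556 to 11145 in 7 d IR.

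The mitochondrial class held Sod2, which removes superoxide in the matrix, Prdx3, the main peroxiredoxin there, and Txn2 and Txnrd2, the thioredoxin and thioredoxin reductase that serve it. All 4 changes were below 0 on both days, with a median of -0.36 at 2 d and -0.19 at 7 d. A change above 0 was found in 50.4% and 50.8% of all probe sets at 2 d and 7 d. Of the 4 genes, 1 was called, Prdx3 at 7 d, where 5.85% of all probe sets were called lower. The Prdx3 signal was 13153, 13199 and 11705 in 2 d sham, 8260.2, 10830.4 and 10557 in 2 d IR, 10708, 10185 and 12305 in 7 d sham, and 7074, 8498 and 7948 in 7 d IR. The IR arrays lay below the sham arrays of their day on both days. Prdx3 fell by 0.49 at 7 d (SE 0.13, 1.4-fold lower, adjusted p 0.0244), and the change at 2 d was -0.36 (SE 0.13, adjusted p 0.117). The 7 d call was lost without 7 d IR array 44 (adjusted p 0.0973), without 7 d IR array 48 (0.0507) and without 7 d sham array 82 (0.114).

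Txnrd2 read 1714, 1966 and 1912 in 2 d sham, 1313, 1346 and 1483 in 2 d IR, 1471, 1574 and 1900 in 7 d sham, and 1229.5, 1426 and 1442 in 7 d IR. Its IR arrays were below the sham arrays on both days, with changes of -0.39 (SE 0.13, adjusted p 0.10) and -0.24 (SE 0.13, adjusted p 0.237). Txn2 gave -0.36 at 2 d (SE 0.19, adjusted p 0.282), again without overlap, and -0.14 at 7 d with overlap. Sod2 stayed between 9461 and 12606 on all arrays and gave -0.04 and -0.14 (adjusted p 0.889 and 0.445). Over the 4 genes, the mean log2 signal relative to 2 d sham was -0.41, -0.18 and -0.26 in 2 d IR, -0.30, -0.25 and -0.02 in 7 d sham, and -0.52, -0.43 and -0.38 in 7 d IR. Arrays 69 and 82 were the lowest of 2 d IR and the highest of 7 d sham. The cardiomyocyte markers moved in the same direction in both IR groups, with a median change of -0.35 at 2 d and -0.42 at 7 d. What they contributed to the values of this class was not tested.

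**Figure D3:**
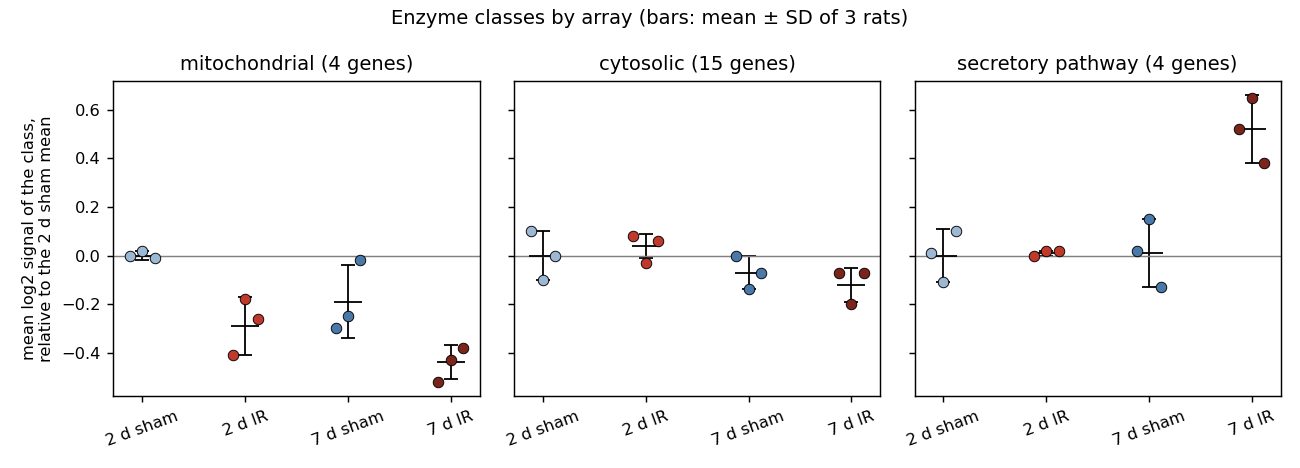
Mean log2 signal of the mitochondrial (4 genes), cytosolic (15) and secretory pathway (4) classes relative to the 2 d sham mean (y axis), 1 point per rat, with mean and SD of 3 rats in each group (x axis). The mitochondrial class is at -0.44 ± 0.07 in 7 d IR, the cytosolic arrays lie between -0.20 and 0.10, and the secretory class is at 0.52 ± 0.14 in 7 d IR with the other 9 arrays between -0.13 and 0.15.

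Set side by side, the secretory pathway genes had a median change of 0.04 at 2 d and 0.50 at 7 d, the 15 tested cytosolic genes 0.09 and -0.06, and the mitochondrial genes -0.36 and -0.19. The secretory median at 7 d lay between Gpx7 and Prdx4 (0.80 and 0.88) and the secreted Sod3 and Gpx3 (0.20 and 0.14), and near none of them. The class mean in the secretory pathway was 0.52, 0.65 and 0.38 above the 2 d sham mean in the 7 d IR rats, above every other array. In the cytosolic class, the means of the 4 groups differed by less than 0.2. No test was made of these class values. The cytosolic medians had no stable sign: at 2 d the value was -0.13 without 2 d IR array 69, -0.02 without 2 d IR array 76 and -0.15 with the 7 d sham rats as control, and at 7 d it was 0.02 without 7 d IR array 47 and 0.05 with no filter on dim probe sets. The mitochondrial median stayed below 0 in every alternative, but at 2 d it was -0.25 without array 69 and -0.11 with the 7 d sham rats as control. At 7 d it was -0.30 without 7 d IR array 48, -0.29 without 7 d sham array 80 and -0.48 with the 2 d sham rats as control. The secretory medians at 2 d and 7 d came to 0.17 and 0.20 when Mgst1, an enzyme of several membranes, was counted in the class.

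Of the 15 tested cytosolic genes, 0 were called at 2 d, where 2.47% of all probe sets were, and 2 (13.3%) were called lower at 7 d, where 5.85% were. SOD1 is the copper and zinc superoxide dismutase of the cytosol. The Sod1 signal was 33174, 34992 and 37749.9 in 2 d sham, 24139.5, 32398 and 31548 in 2 d IR, 27339, 34547 and 35550.1 in 7 d sham, and 21982, 20684 and 21855 in 7 d IR. The IR arrays lay below the sham arrays on both days, and the 7 d IR arrays below all others. Sod1 fell by 0.58 at 7 d (SE 0.13, 1.5-fold lower, adjusted p 0.0124), and the change at 2 d was -0.27 (SE 0.13, adjusted p 0.223). The 7 d call held in 21 of 22 alternatives and was lost without 7 d sham array 82 (-0.51, adjusted p 0.0636). Against 2 d IR, the 7 d IR value was -0.43 (SE 0.13, adjusted p 0.0767), and -0.57 (adjusted p 0.0167) without 2 d IR array 69.

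GSTO1 is the omega glutathione transferase, which reduces rather than conjugates its substrates. The Gsto1 signal was 7552, 6897 and 7502 in 2 d sham, 6313, 4810.2 and 6972 in 2 d IR, 7227, 7169.6 and 7543 in 7 d sham, and 5585, 5147 and 5094 in 7 d IR. The 7 d groups did not overlap and the 2 d groups did. Gsto1 fell by 0.46 at 7 d (SE 0.13, 1.37-fold lower, adjusted p 0.0314). The call was held in 14 of 22 alternatives and lost when any array of either 7 d group was left out. Over the alternatives the adjusted p ran from 0.0146 to 0.111, and with 1 array left out the change ran from -0.50 to -0.43.

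The other glutathione transferases did not pass with all 12 arrays and the settings above. Gsta4, which conjugates the lipid peroxidation product 4-hydroxynonenal, read 2514, 2469.8 and 1942 in 2 d sham, 1554, 1574 and 1925 in 2 d IR, 2113, 1759.9 and 2198 in 7 d sham, and 1312, 1586 and 1456 in 7 d IR. The IR arrays lay below the sham arrays on both days, and the changes were -0.41 (SE 0.14, adjusted p 0.112) and -0.43 (SE 0.14, adjusted p 0.0587). The 7 d change passed in 4 of 22 alternatives: median centring (adjusted p 0.0395), quantile normalization (0.037), without 7 d sham array 81 (0.0496) and with the 2 d sham rats as control (0.00693). Gstm1 and Gstm2, which conjugate a wide range of electrophiles, gave -0.43 and -0.26 at 7 d without overlap (adjusted p 0.239 and 0.325), and 0.19 and -0.13 at 2 d. Gstp1, the pi class enzyme, gave -0.02 and 0.20, and Mgst1, a membrane enzyme, 0.37 at 2 d without overlap (adjusted p 0.314) and -0.10 at 7 d. At 7 d, 5 of the 6 tested transferases had a change below 0 and 4 had IR arrays wholly below the sham arrays, where 15.8% of all probe sets had. The median of the 6 was -0.34, beside 0.007 over all probe sets, of which 50.8% had a change above 0.

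Of the genes of glutathione synthesis and reduction, Gclc read 838.3 to 1326 on its brighter probe set, and the others were dimmer. Gclc, the catalytic subunit of the rate-limiting ligase, gave 0.10 and 0.05 on its brighter probe set. Its dimmer probe set read 354.5, 149.8 and 127.1 in 7 d sham and 519.5, 701.7 and 667.5 in 7 d IR, without overlap, and was called higher (1.06, SE 0.28, adjusted p 0.028), so that the 2 probe sets disagree. Gclm, the modifier subunit, gave 0.33 and 0.09 (adjusted p 0.407 and 0.818). Gss and Gsr, which complete the synthesis and reduce oxidised glutathione, read 130.6 to 730.7 and 195.9 to 428.8 over the 12 arrays and were not tested, and Gstt1, the theta class transferase, read 25.8 to 110.4.

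Glrx, the glutaredoxin that removes glutathione from protein thiols, had the largest change at 2 d among the genes. Its signal was 1318, 873.4 and 1103 in 2 d sham, 2753, 2101 and 1779 in 2 d IR, 1275, 1322 and 1034 in 7 d sham, and 3639.9, 1688 and 1479.7 in 7 d IR. The IR arrays lay above the sham arrays on both days, and array 44 was far above the other 7 d IR arrays. The changes were 0.89 at 2 d (SE 0.25, adjusted p 0.0703) and 0.71 at 7 d (SE 0.25, adjusted p 0.0812), neither called. A second, dimmer probe set read 822.6, 646.4 and 856.3 in 2 d sham and 2451, 2099 and 1343 in 2 d IR and was called higher at 2 d (1.12, SE 0.23, adjusted p 0.0285). With the mean of both probe sets the gene was called at 2 d as well (1.01, adjusted p 0.0393), as it was without 7 d IR array 44, which shares only the estimate of the spread. At 7 d the dimmer probe set overlapped between the groups (600.3 to 974.0 in sham, 902.9 to 1778 in IR). Its change there was 0.66 (SE 0.23, adjusted p 0.0796) and was not called.

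Txn1, the cytosolic thioredoxin, read 16586, 18499 and 19836 in 2 d sham, 24036, 19897 and 21788 in 2 d IR, 16157, 16713 and 14729.7 in 7 d sham, and 20408, 18136 and 17408 in 7 d IR. The IR arrays were above the sham arrays on both days, but the changes of 0.26 and 0.23 did not pass (SE 0.11, adjusted p 0.192 and 0.184). Txnrd1, which reduces it, gave 0.31 at 2 d (adjusted p 0.168) and -0.06 at 7 d. Srxn1, which repairs overoxidised peroxiredoxins, ranged from 97.3 to 966.3 and gave 0.12 and 0.38 with SE 0.39. Nqo1, a quinone reductase and a classical NRF2 target, gave 0.09 and 0.25. Among cytosolic peroxiredoxins, Prdx2 gave -0.21 and -0.24 and Prdx6, which also cleaves phospholipids, -0.41 and -0.13, with adjusted p from 0.139 to 0.651.

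Of 32 genes, 4 had all IR arrays above the sham arrays at 2 d and 7 below, where 13.9% and 12.5% of all probe sets had. At 7 d the numbers were 4 above and 11 below, beside 16.6% and 15.8% of all probe sets.

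Cat, the peroxisomal catalase, read 11751, 11000.1 and 9402 in 2 d sham, 6784, 8540.1 and 7578 in 2 d IR, 7926, 8329 and 11414 in 7 d sham, and 5600.5, 7826 and 7009 in 7 d IR. The IR arrays lay below the sham arrays of their day on both days. The changes of -0.48 and -0.42 (SE 0.16) had adjusted p of 0.104 and 0.0969, and neither was called. Prdx5, found in mitochondria, peroxisomes and cytosol, read 10227, 12969 and 9929 in 2 d sham, 16042, 10089 and 11944 in 2 d IR, 9841, 10694 and 12330.5 in 7 d sham, and 8045, 8615 and 7881 in 7 d IR. The 7 d IR arrays were below all others, with -0.41 against 7 d sham (SE 0.16, adjusted p 0.103) and -0.60 against 2 d IR (SE 0.16), where the adjusted p rounds to 0.05 and did not pass. Gpx1, the most widespread glutathione peroxidase, gave -0.18 and -0.23, and Gpx4, which reduces lipid peroxides in membranes, -0.28 and -0.14, with adjusted p from 0.134 to 0.396. All 4 genes of several compartments were below 0 at 7 d, with a median of -0.19, and 0 were called. Of all probe sets, 50.8% had a change above 0 at 7 d and 12.1% were called.

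Metallothioneins are small proteins rich in cysteine that bind zinc and copper and scavenge oxidants, and their genes respond to metals through the factor MTF1, to glucocorticoids and to inflammatory signals. The Mt2A signal was 8961, 14398 and 19689 in 2 d sham, 23932, 24354 and 17862 in 2 d IR, 15964, 13061 and 10246 in 7 d sham, and 11145, 7556 and 7582 in 7 d IR. IR and sham overlapped on both days, while the 2 IR groups did not overlap. Mt2A was lower in 7 d IR than in 2 d IR by a log2 difference of -1.32 (SE 0.24, 2.5-fold lower, adjusted p 0.00659), and this call held in 21 of 21 alternatives, with changes of -1.50 to -1.23. Against sham, the change was 0.67 at 2 d (SE 0.24, adjusted p 0.135) and -0.57 at 7 d (SE 0.24, adjusted p 0.143), and the difference of these effects was -1.24 (SE 0.35, adjusted p 0.413). The sham groups differed by -0.08 (adjusted p 0.934). Mt1, on a dim probe set that was not tested, read 348.4, 209.4 and 313.9 in 2 d sham, 279.0, 102.4 and 303.1 in 2 d IR, 42.7, 82.7 and 237.3 in 7 d sham, and 137.3, 27.4 and 31.9 in 7 d IR.

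The promoters of 4 genes are shown, those of Gpx7 and Prdx4, which were both higher at 7 d, and those of Mt2A, which fell between the days of reperfusion, and of its neighbour Mt1. Each is the 250 bases before the start of the gene in RefSeq (assembly GRCr8), 5′ to 3′ on the strand of the gene: Gpx7 at chr5:128381726-128381975, minus strand, Prdx4 at chrX:43878483-43878732, plus strand, Mt2A at chr19:10838709-10838958, minus strand, and Mt1 at chr19:10832976-10833225, minus strand. Capitals mark matches, on either strand, to the core of the antioxidant response element, which NRF2 binds (TGACNNNGC), or to the core of the metal response element, which MTF1 binds (TGCACNC or TGCGCNC).
Gpx7: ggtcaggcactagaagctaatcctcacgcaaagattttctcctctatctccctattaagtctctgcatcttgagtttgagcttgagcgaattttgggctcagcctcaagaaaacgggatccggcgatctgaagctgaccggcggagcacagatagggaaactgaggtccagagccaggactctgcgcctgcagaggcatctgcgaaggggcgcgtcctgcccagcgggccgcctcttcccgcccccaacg
Prdx4: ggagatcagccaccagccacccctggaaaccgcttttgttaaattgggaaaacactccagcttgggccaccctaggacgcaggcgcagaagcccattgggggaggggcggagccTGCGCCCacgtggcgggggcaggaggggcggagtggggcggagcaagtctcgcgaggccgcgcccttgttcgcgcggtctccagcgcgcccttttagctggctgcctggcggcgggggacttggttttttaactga
Mt2A: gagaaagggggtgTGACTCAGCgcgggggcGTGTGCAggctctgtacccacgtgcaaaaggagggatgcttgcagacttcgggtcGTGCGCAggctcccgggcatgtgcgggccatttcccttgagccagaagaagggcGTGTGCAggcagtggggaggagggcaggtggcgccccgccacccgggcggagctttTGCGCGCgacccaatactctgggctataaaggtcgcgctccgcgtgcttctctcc
Mt1: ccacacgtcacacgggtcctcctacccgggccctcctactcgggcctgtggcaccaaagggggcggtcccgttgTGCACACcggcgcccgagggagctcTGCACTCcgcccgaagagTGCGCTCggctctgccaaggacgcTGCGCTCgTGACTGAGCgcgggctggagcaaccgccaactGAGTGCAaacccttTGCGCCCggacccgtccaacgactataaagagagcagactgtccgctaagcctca

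Mt2A had 4 metal response matches, the first bases of which lie 220, 165, 111 and 55 bases before the start, and 1 antioxidant response match at 237. Mt1 had 6 metal response matches and 1 antioxidant response match. At least 4 metal response matches were found in 0.266% of the 33469 RefSeq rat starts in windows of the same length, and at least 6 in 0.0269%. Prdx4 had 1 metal response match, as at least 1 was found in 20.6% of all starts, and Gpx7 had no match to either. No matches overlapped in these 4 windows. RefSeq entries were matched for 31 of the genes, with 34 starts, and 6 of the 34 (17.6%) held the antioxidant response core, those of Gclm, Gstp1, Mt1, Mt2A, Sod2 and Txnrd1, beside 10.1% of all starts. The metal response core was in 8 of 34 (23.5%). Gsr, Gstt1, Prdx6, Sod3 and Txnip were not matched. A match is a run of letters and no measure of binding.

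Among the regulators, Nfe2l2, which encodes NRF2, gave 0.28 at 2 d and 0.25 at 7 d (SE 0.15, adjusted p 0.289 and 0.281), Keap1 -0.10 and 0.04, and Txnip, which inhibits thioredoxin, 0.04 and -0.12. None of the 3 was called in any of the 5 comparisons, in which 0.0095% to 12.1% of all probe sets were called.

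Further genes of the pathway were counted by list, beside the 1.88% and 0.589% of all probe sets called higher and lower at 2 d and the 6.22% and 5.85% at 7 d. Of 13 other tested NRF2 partners and targets, 2 rose at 2 d, namely Hmox1, the haem oxygenase that rises with haem and oxidants (2.01, SE 0.31, adjusted p 0.0132), and Akr1b8, an aldose reductase (1.29, SE 0.29, adjusted p 0.0351). These calls held in 9 and 8 of the 12 fits with 1 array left out. At 7 d, 1 of the 13 fell, the carbonyl reductase Cbr1 (-0.70, SE 0.13, adjusted p 0.00867, held in 12 of 12). Hmox1 and Cbr1 were lower in 7 d IR than in 2 d IR (-1.31 and -0.84, adjusted p 0.0313 and 0.00235, held in 8 and 12 of 12). In that comparison 0.997% of all probe sets were called lower. The list's median was -0.02 at 2 d and -0.20 at 7 d.

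Of 22 further tested glutathione genes, 0 were called at 2 d and 4 fell at 7 d, where 5.85% of all probe sets did. They were the transferases Gstz1, which acts in tyrosine breakdown (-0.76, adjusted p 0.0196), Gstm7 (-0.71, 0.0385), the mitochondrial and peroxisomal Gstk1 (-0.67, 0.0205) and the microsomal Mgst3 (-0.48, 0.024). These held in 10, 7, 9 and 8 of 12 fits with 1 array left out, and the list's median was -0.09 at 2 d and -0.30 at 7 d. Among 19 other thioredoxin, methionine sulfoxide and selenoprotein genes, Selenom, a selenoprotein of the endoplasmic reticulum, rose at 7 d (0.64, SE 0.14, adjusted p 0.0124, held in 10 of 12) and 0 fell. The list's median was 0.10 and 0.05.

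NADPH is the electron source of both systems, and 12 further genes related to its supply were tested. Some of these, such as Tkt and Nadk, do not make NADPH themselves. Tkt, the transketolase of the pentose phosphate pathway, rose on both days (1.11 and 0.77, SE 0.18, adjusted p 0.0134 and 0.0172, each held in 9 of 12), as did the NAD kinase Nadk (0.54 and 0.56, SE 0.13, adjusted p 0.0443 and 0.0173, held in 2 and 10 of 12). At 7 d the mitochondrial enzymes Idh2 and Me3 fell (-0.58 and -0.79, adjusted p 0.00805 and 0.017, held in 12 and 9 of 12). The median over the list was 0.03 and -0.04. Of 9 tested oxidant producers, Cyba, a membrane subunit of the phagocyte NADPH oxidase, rose at 2 d (0.98, SE 0.20, adjusted p 0.0285, held in 8 of 12) and Nos2, the inducible nitric oxide synthase, rose at 7 d (1.35, SE 0.41, adjusted p 0.0475, held in 4 of 12). The medians were 0.20 and 0.28. Of 11 tested glucocorticoid-responsive genes, taken because metallothioneins respond to these hormones, Sgk1 rose at 2 d (0.95, adjusted p 0.0185, held in 9 of 12) and Klf9 fell at 7 d (-0.52, adjusted p 0.0265, held in 8 of 12), with list medians of 0.20 and 0.13. With the sham rats of the other day as control, 5 of these calls were lost, those of Sgk1 (0.50, adjusted p 0.179), Klf9 (-0.23, 0.25), Nadk at 2 d (0.29, 0.30), Cyba (0.68, 0.128) and Gstm7 (-0.56, 0.0649). None of these 6 lists had a call in the difference of the IR effects or between the sham groups.

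**Figure D4:**
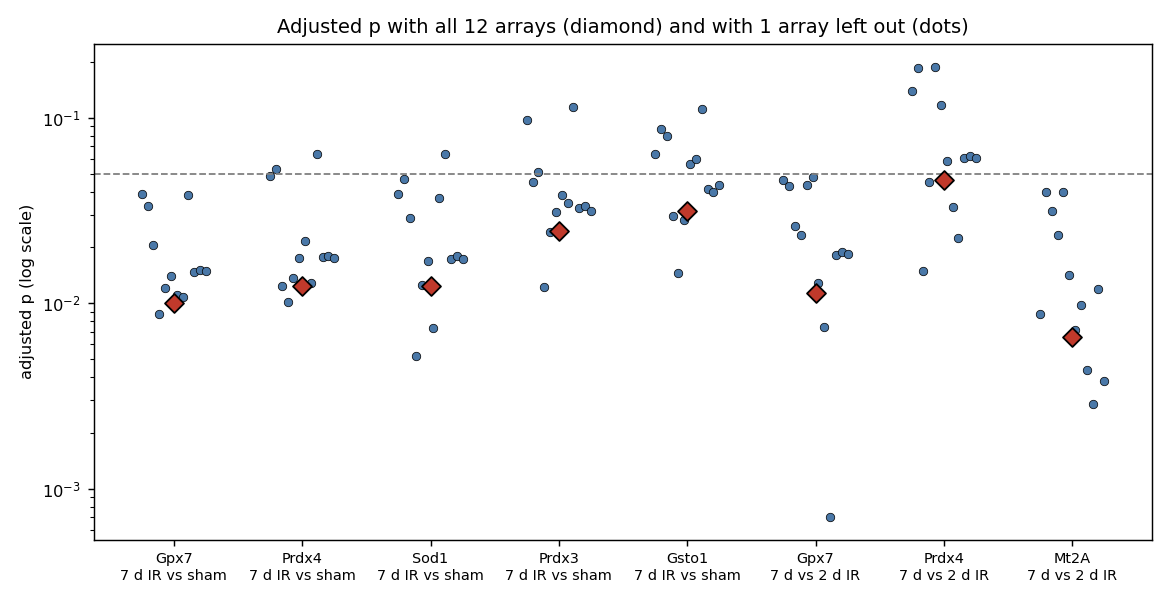
Adjusted p (y axis, log scale, dashed line at 0.05) of the 8 calls on single genes (x axis), with all 12 arrays (diamonds) and with each array left out in turn (dots). Every dot lies under the line for Gpx7 in both comparisons and for Mt2A, 11 of 12 do for Sod1, 10 of 12 for Prdx4 at 7 d, 9 of 12 for Prdx3, 6 of 12 for Gsto1 and 4 of 12 for Prdx4 between the IR groups.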

How the data were processed

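RNA from 12 rat hearts was measured on arrays with 15923 probe sets. The deposited values are linear intensity per probe set, computed by the authors with MAS5 per the submitters' processing notes (version: not given in the sources used here). Trimmed means (2% off each end) were 1500.4 to 1500.5, so the authors' intensity was scaled per array. Array medians were 637.3 to 719. The number of arrays limits the precision.

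Intensities were taken as log2(signal + 195.4), the pseudocount being the median of the arrays' 20th percentiles. After leaving out 57 controls, 10527 of 15866 probe sets were tested, those that exceeded the 40th percentile of the array on 3 arrays or more. Symbols came from GEO's platform annotation (12789 probe sets with 1 symbol, 312 with several, 2822 with none). Group means over all 12 arrays were fitted with limma 3.58.1 in R 4.3.3 (eBayes with intensity trend, two-sided, Benjamini-Hochberg, 0.05), after a check on simulated data; 5 comparisons were made. No batch is given in the labels, and replicate numbers are not shared between groups. Members may all be named, with full values for those called; of other lists, up to 4 called genes per comparison. Members, lists and tests were chosen with earlier results of these data known. Alternatives covered pseudocount, filter, scaling, trend, samples in the fit, probe sets, left-out arrays, the sham day and the compartment classes. Of marker lists not given in the report, 0 and 1 genes were called, the latter higher, at 2 d and 7 d for neutrophils (2 tested), endothelium (8) and smooth muscle (6), and 0 for red blood cells (3), adipocytes (1), lung (2) and skeletal muscle (1).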

Additional observations from a re-analysis of the deposited data

How the results depend on the processing

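No called value changed sign. Among values that were not called, the cytosolic medians changed sign as given below, and so did 151 values of single genes over all alternatives. No paired analysis was possible because the groups share no replicate numbers. No count of genes changed in the difference of the IR effects, nor the count lower at 2 d or lower between sham groups. The count higher at 2 d (0) was 1, Glrx, with only the groups of the comparison in the fit and with the mean of all probe sets. The count lower at 7 d (3) was 1 without arrays 69 and 82 together and 8 with the 2 d sham rats as control. Between sham groups, 1 gene (Gpx7) was higher without arrays 69 and 82. From 2 d IR to 7 d IR, the count higher (2) was 1 without the filter, with median centring, without the trend and with only the compared groups; the count lower (1) was 2 with the 40th percentile pseudocount, median centring or the mean of probe sets, as Prdx5 passed with Mt2A, and 3 without arrays 69 and 82.

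Leaving out 1 array gave 0 to 1 higher at 2 d (1 without 7 d IR array 44), 1 to 3 higher at 7 d (1 without array 47 or 82) and 0 to 4 lower at 7 d (1 without array 44 or 48, 0 without 82), 0 to 1 higher between shams (1 without 82), and 1 to 2 both higher and lower between IR groups. Class medians then ran from -0.40 to -0.25 (2 d) and -0.30 to -0.16 (7 d) for mitochondrial, -0.13 to 0.09 and -0.11 to 0.02 for cytosolic, and 0.00 to 0.10 and 0.45 to 0.57 for secretory pathway genes. Without arrays 69 and 82 the 2 d medians were -0.25 (mitochondrial) and -0.13 (cytosolic); with the other day's sham rats they were -0.11 and -0.15, and the mitochondrial 7 d median -0.48. The cytosolic 7 d median was 0.05 without the filter. With genes of several compartments added, the secretory medians were 0.17 and 0.20. The causes were not tested, except that the last change follows from the added gene.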
